A study of Mus musculus with 4 samples.

Results

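The genes of elastin and the elastic fibre (Eln, Lox, Loxl1, Fbn1, Fbn2, Fbln1, Fbln2, Fbln5, Efemp1 and Efemp2) were examined for altered 5-hydroxymethylcytosine (5hmC), which TET enzymes produce by oxidising 5-methylcytosine, after loss of the chromatin remodeler LSH. There were 4 groups with 1 library each: LSH knock out embryonic stem (ES) cells against wild type ES cells, and LSH knock out mouse embryonic fibroblasts (MEFs) against wild type MEFs. The ES cells were kept in serum with LIF and the MEFs in serum alone. DNA fragments with 5hmC were tagged, captured on streptavidin and sequenced. For each cell type the authors deposited 1 list of the 5 kb bins of the mouse genome (mm9) in which knock out and wild type differed. These lists contain bin positions but no direction, level, fold change or p-value. A listed bin is called altered, which leaves the sign of the change in knock out cells unknown, and no value has a replicate error. The knock out alleles, the number of cultures and the read depth are not stated, and the cell types could not be checked by marker genes in lists of this kind. In DNA from a population, a change in the share of cells that carry 5hmC at a site and a change in its level per cell cannot be told apart.

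Altered bins were taken where they overlapped the body of a gene or the 20 kb upstream of its start, by the GENCODE M1 annotation, together with the run of MEF bins that extends further upstream of Eln. This gave 34 of the 17559 entries on both lists, 8 of 8557 on the ES list and 26 of 9002 on the MEF list, at 10 of the 26031 genes considered. The genes were selected on their presence on these lists, as well as for their role, so every count below is a description and none was tested.

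Elastic fibres give skin, arteries and lungs their recoil. Fibroblasts and smooth muscle cells secrete soluble elastin, which is laid down on a scaffold of fibrillin microfibrils and guided there by fibulins. Lysyl oxidases then oxidise lysine side chains so that the elastin molecules become cross-linked and insoluble. 5hmC lies mostly at CpG dinucleotides, and it is common in the bodies and distal elements of genes in ES cells and differentiated cells.

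The sequences that follow come from bins on which the description turns: the starts of Eln and Fbln1 inside MEF bins, bins upstream of Eln, and bins of Loxl1, Fbln1, Fbln2 and Fbln5. Each line runs 300 bases 5′ to 3′ on the strand that is transcribed, with the CpG dinucleotides in capitals (mm9, 1-based). Promoter lines hold the bases just before the annotated start, and the other lines hold the exon-free stretch of the bin with the most CpG.
Eln promoter, MEF list, chr5:135223112-135223411, minus strand: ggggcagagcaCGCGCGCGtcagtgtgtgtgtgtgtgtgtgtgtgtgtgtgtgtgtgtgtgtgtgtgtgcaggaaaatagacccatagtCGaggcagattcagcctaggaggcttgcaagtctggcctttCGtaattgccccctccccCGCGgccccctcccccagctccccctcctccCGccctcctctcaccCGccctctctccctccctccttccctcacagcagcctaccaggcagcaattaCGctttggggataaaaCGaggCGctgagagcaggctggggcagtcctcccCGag
Eln upstream, bin on both lists, chr5:135273803-135274102, minus strand: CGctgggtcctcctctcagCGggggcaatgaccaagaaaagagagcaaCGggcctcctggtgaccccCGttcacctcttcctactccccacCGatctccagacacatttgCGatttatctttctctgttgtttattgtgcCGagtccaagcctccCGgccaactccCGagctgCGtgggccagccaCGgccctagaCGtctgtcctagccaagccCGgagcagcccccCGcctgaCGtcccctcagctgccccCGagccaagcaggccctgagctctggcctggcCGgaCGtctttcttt
Eln upstream, MEF list, chr5:135261892-135262191, minus strand: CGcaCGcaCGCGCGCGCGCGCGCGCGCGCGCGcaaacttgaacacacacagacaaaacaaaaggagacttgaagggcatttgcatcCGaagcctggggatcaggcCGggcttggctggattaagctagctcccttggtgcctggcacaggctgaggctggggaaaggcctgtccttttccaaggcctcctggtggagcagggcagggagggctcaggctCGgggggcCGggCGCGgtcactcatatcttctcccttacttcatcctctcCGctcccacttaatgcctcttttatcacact
Loxl1 first intron, MEF list, chr9:58157959-58158258, minus strand: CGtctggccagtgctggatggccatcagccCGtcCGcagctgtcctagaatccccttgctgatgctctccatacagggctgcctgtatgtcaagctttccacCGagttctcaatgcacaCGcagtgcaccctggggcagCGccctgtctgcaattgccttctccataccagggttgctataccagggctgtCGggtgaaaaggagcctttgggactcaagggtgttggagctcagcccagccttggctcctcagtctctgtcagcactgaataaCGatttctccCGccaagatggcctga
Fbln1 promoter, MEF list, chr15:85036079-85036378, plus strand: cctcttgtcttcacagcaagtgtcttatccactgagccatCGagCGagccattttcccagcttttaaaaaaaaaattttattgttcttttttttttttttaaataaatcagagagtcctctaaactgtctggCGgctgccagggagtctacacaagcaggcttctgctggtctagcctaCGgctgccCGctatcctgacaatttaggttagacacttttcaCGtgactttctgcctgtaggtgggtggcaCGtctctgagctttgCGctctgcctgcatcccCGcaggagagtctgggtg
Fbln1 intron, ES list, chr15:85063107-85063406, plus strand: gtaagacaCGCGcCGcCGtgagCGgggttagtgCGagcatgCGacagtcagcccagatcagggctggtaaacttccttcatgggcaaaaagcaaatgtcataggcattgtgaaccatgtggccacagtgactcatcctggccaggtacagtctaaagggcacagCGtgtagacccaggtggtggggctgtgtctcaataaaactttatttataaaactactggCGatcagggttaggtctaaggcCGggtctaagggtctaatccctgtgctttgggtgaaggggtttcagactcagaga
Fbln2 first intron, ES list, chr6:91163162-91163461, plus strand: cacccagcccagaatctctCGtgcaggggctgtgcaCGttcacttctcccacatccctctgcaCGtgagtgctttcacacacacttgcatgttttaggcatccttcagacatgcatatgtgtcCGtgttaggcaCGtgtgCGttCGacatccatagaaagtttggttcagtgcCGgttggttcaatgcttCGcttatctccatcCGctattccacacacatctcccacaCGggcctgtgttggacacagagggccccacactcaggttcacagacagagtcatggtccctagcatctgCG
Fbln5 upstream, ES list, chr12:103071945-103072244, minus strand: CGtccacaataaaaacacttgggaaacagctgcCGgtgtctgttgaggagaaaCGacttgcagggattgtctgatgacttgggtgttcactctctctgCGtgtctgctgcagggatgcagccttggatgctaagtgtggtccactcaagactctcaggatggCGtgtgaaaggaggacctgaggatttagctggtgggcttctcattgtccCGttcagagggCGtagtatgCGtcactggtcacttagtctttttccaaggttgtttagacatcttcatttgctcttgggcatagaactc
Fbln5 upstream, MEF list, chr12:103067906-103068205, minus strand: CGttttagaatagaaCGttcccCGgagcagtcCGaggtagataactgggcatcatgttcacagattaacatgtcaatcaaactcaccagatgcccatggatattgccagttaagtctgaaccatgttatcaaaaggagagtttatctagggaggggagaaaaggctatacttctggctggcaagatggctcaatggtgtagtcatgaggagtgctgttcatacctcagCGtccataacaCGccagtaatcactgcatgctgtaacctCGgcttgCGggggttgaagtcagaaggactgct

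Elastic fibre genes carried altered 5hmC bins in both cell types, with more bins in MEFs. Of the 10 genes, 7 had an altered bin in ES cells (Loxl1, Fbn1, Fbn2, Fbln1, Fbln2, Fbln5 and Efemp2) and 9 had one in MEFs, all but Fbln2. The bins counted at Efemp2 lay upstream of it, on neighbouring genes. Over all genes, 25.9% had an ES bin and 18.1% had a MEF bin in a window of the same kind. Among other protein-coding genes with windows within 25% of the size of each member's, the mean of these shares over the 10 members was 36.8% for ES and 27.7% for MEFs. ES cells had 1 bin at each of their 7 genes, so 7 bins in all. MEFs had 20 bins, from 5 at Fbn1 and 3 each at Eln and Loxl1 to 1 each at Lox, Fbn2 and Efemp2. The gene windows spanned 207 bins, of which 3.38% were on the ES list (exact binomial 95% interval 1.37% to 6.84%) and 9.66% on the MEF list (6.0% to 14.5%), against 1.67% for ES and 1.75% for MEFs of all bins with sequence. The intervals cover counting error over bins only, and neighbouring bins are not independent. CpG-rich bins were listed more often in the genome as a whole, and the gene windows were richer in CpG than the genome (median 9.8 against 7 CpG per kb). When the genome was divided into 10 equal groups of bins by CpG density and the rate of each group was applied, the 207 bins would have held 5.80 ES bins and 5.61 MEF bins, beside the 7 and 20 found.

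**Figure D1:**
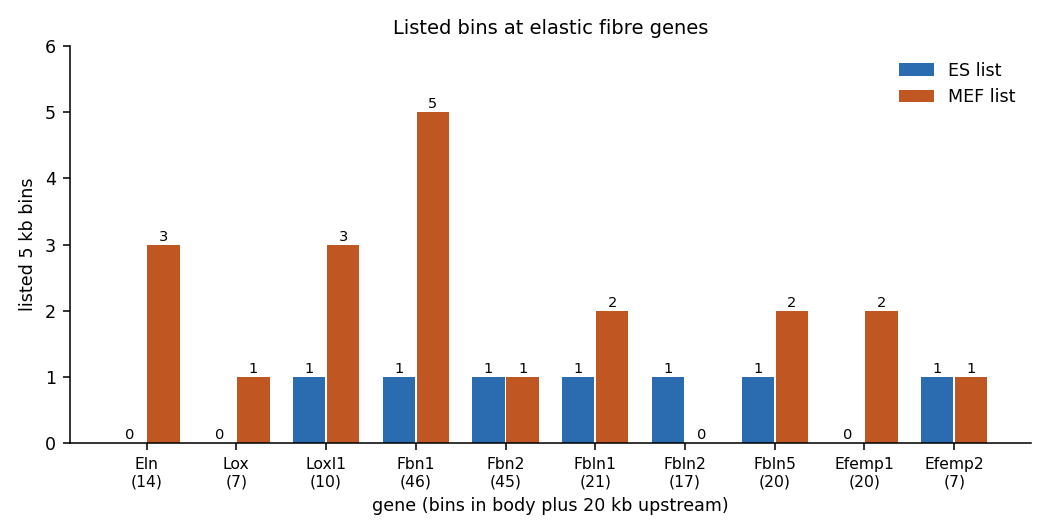
Number of altered 5 kb bins (vertical axis) at each gene and its 20 kb upstream on the ES list (blue) and the MEF list (orange), with the number of bins in each window in brackets. ES bars are 0 or 1 throughout, and the MEF bars reach 5 at Fbn1 and 3 at Eln and Loxl1.

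No bin within these windows was on both lists. The 6 genes Loxl1, Fbn1, Fbn2, Fbln1, Fbln5 and Efemp2, had bins from both lists but at different places. On chromosomes 1 to 19 and X, 406 bins were shared, 4.75% of those in ES cells and 4.53% of those in MEFs. At Fbln1, Fbln5 and Efemp2 the ES bin directly touched a MEF bin, which makes 3 of the 7 ES bins. The pair counted at Efemp2 lies on the neighbouring genes Fibp and Ctsw. Genome-wide, 7.67% of ES bins lay directly beside a MEF bin, and 7.33% of MEF bins beside an ES bin. MEF bins were denser in these chosen windows (9.66% of bins against 1.75%), so the genome-wide shares are not a matched background. Within their own list, 0 of the 7 ES bins and 8 of the 20 MEF bins had a listed neighbour directly beside them, against 10.2% of all ES bins and 20.7% of all MEF bins.

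**Figure D2:**
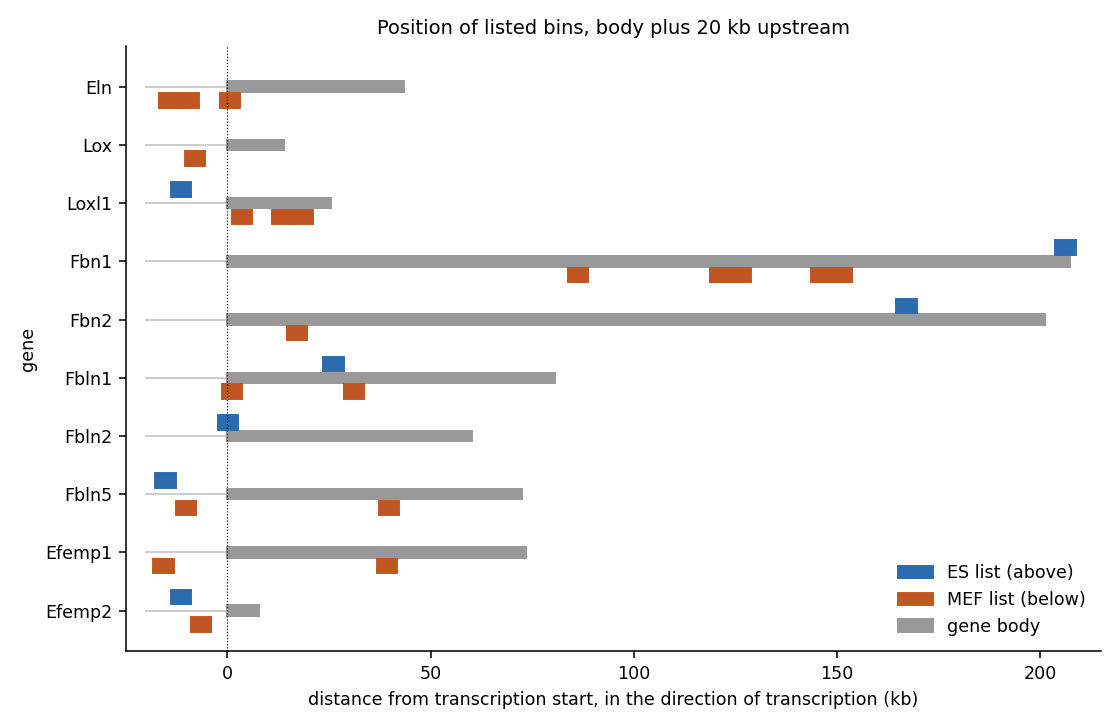
Altered bins drawn along each gene (rows), with distance from the transcription start in kb on the horizontal axis and the gene body in grey. ES bins are blue and above the gene, MEF bins are orange and below it. The Fbn1 bins of MEFs sit in the interior of the gene and its ES bin at the far end, while at Fbln1, Fbln5 and Efemp2 an ES and a MEF bin lie side by side.

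Eln encodes elastin itself and lies on the minus strand of chromosome 5 (135179651 to 135223111, 43.5 kb). Its body and 20 kb upstream spanned 14 bins, of which 0 were on the ES list and 3 on the MEF list. The MEF bin at 135220001 to 135225000 covered the start, exon 1 and the beginning of intron 1, and with 17.6 CpG per kb it was the richest in CpG of the 14. The other 9 bins that overlap the body were on neither list. The other MEF bins of the window, from 135230001 and from 135235001, lay with their centres 9.39 and 14.4 kb upstream of the start. Among 3906 other protein-coding genes with windows within 25% of the size of that of Eln, 33.2% had an ES bin, 21.7% had a MEF bin and 1.74% had 3 or more MEF bins. The 3 MEF bins of Eln belong to the run by which these bins were chosen, so the last share is no finding.

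The MEF bins upstream of Eln went on past the 20 kb limit. From 135220001 to 135275000, a span of 55 kb, 1 of 11 bins was on the ES list and 9 were on the MEF list. The bins from 135225001 and from 135240001 were the 2 gaps. Beyond the first gap came a pair of bins, and beyond the second an unbroken run of 6 bins from 135245001 to 135275000. The run ended 51.9 kb upstream of the Eln start. CpG density of the 9 MEF bins went from 10 to 19.2 CpG per kb, with a median of 14.6. The gaps, at 13.2 and 16.2 CpG per kb, lay within that range, the first below that median and the second above it. In the MEF list as a whole 80.0% of the 6892 stretches, made by joining bins within 10 kb, were a single bin and 2.25% had 4 or more. The run was part of the rule by which these bins were chosen, so its length is no finding here.

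The single ES bin of this span, at 135270001 to 135275000, was the last bin of the MEF run, and the only shared bin among the 34 entries of the 10 genes. It held 76 CpG (15.2 per kb), and its densest exon-free 300 bases, shown above, held 18 CpG at a GC content of 62.7%. The gap between Eln and the next annotated gene upstream, Wbscr28, is 154 kb long. In that gap the ES list had 3 bins, with centres 49.4, 94.4 and 144 kb from the Eln start. The MEF list had 8 bins there, with centres from 9.39 to 49.4 kb from the start. The place of the MEF bins near Eln was part of the rule by which they were chosen. The 2 unshared ES bins lay farther out.

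**Figure D3:**
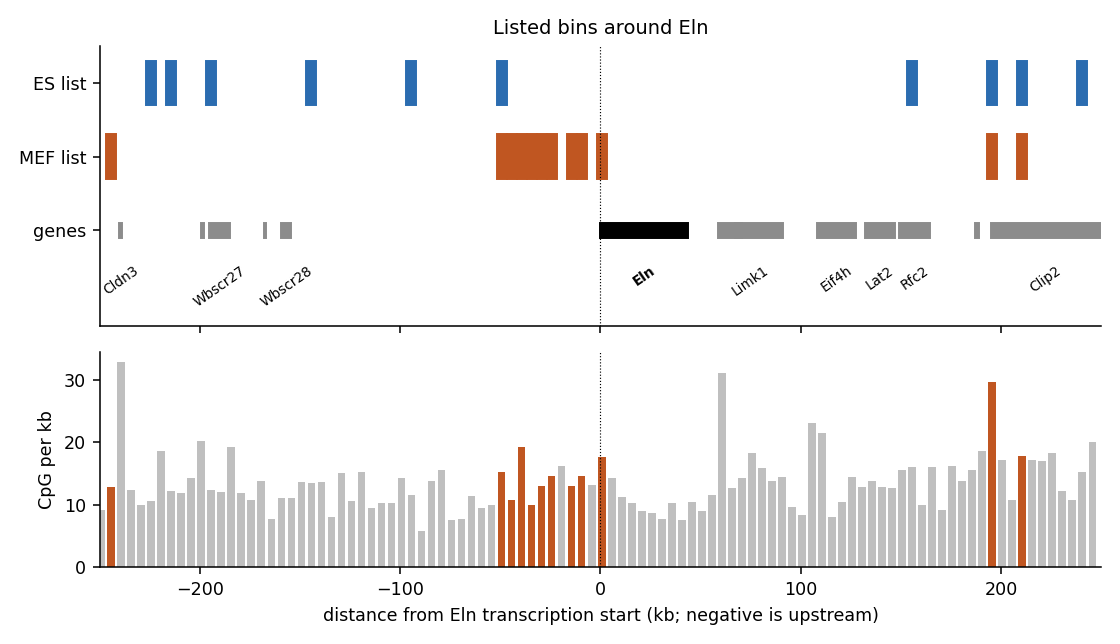
Upper panel, altered bins of the ES list (blue) and the MEF list (orange) with gene bodies in grey and Eln in black, by distance from the Eln start in kb (negative values are upstream). Lower panel, CpG per kb of each 5 kb bin, with MEF bins in orange. The 9 MEF bins next to Eln run from the start to 51.9 kb upstream with 2 gaps, and the ES bin 49.4 kb upstream coincides with the last of them.

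On the other side of Eln, Limk1, a kinase gene that acts on cofilin, had 0 bins on either list in its body and 20 kb upstream, as did Eif4h and Lat2. Of 21 genes of the Williams syndrome region around Eln, 8 had an ES bin (38.1%) and 6 had a MEF bin (28.6%), beside 25.9% and 18.1% of all genes, and 10 had neither. These shares are not adjusted for gene length. Tbl2 and Bcl7b were reached by the same MEF bin, from 135635001. Gtf2i, Gtf2ird1 and Clip2 had bins from both lists, with 3 ES bins each and 1, 1 and 2 MEF bins. Both MEF bins of Clip2, from 135010001 and from 135025001, were also ES bins. Wbscr28, the gene across the gap, had 0 bins.

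The 300 bases before the Eln start, printed above, held 14 CpG, more than 60.5% of 22196 protein-coding promoters of the same length. Near their 5′ end they hold a short CG repeat followed by a run of GT, and 1 of 9 sampled 32-base words of this sequence occurs more than once in the genome. The GC box letters GGGCGG, searched on both strands, occurred 2 times, and such letters were present in 41.0% of the promoters. The letters TATAAA, which cannot overlap with the GC box letters, were absent from both strands of this window, and 14.6% of the promoters held them. These matches describe letters only.

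Genes with the same pair of counts as Eln (0 ES bins and 3 MEF bins in body and 20 kb upstream) numbered 132, or 0.507% of all genes. That share is over windows of every size, and the MEF bins of Eln were part of the rule of choice. It is thus no measure of how rare the pattern is. The measure of likeness was the sum of the differences in both counts, over 2 cell types, with ties broken by window size. The 5 nearest, all with windows of 14 bins as at Eln, were A430093F15Rik, Gm13415, Prnd, Psat1 and Slc22a2. Prnd encodes a prion-like protein, Psat1 an enzyme of serine synthesis and Slc22a2 an organic cation transporter.

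Of the lysyl oxidase genes, Lox had a MEF bin upstream, and Loxl1 had an ES bin upstream and MEF bins within its body. Lox (chromosome 18, 52675723 to 52689521) encodes the enzyme that oxidises lysines of elastin and collagen. It had 0 ES bins and 1 MEF bin in a window of 7, at 52695001 to 52700000, from 5.48 to 10.5 kb upstream of the start. Of 8359 other protein-coding genes with windows of like size, 20.8% had an ES bin and 11.1% a MEF bin.

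Loxl1 (chromosome 9, 58135530 to 58161019) encodes a lysyl oxidase that acts on elastin and whose loss in mice impairs elastic fibre renewal. It had 1 ES bin and 3 MEF bins in a window of 10, the highest share of MEF bins among the 10 genes, at 30.0%. The ES bin was upstream, at 58170001 to 58175000, with its centre 11.5 kb before the start. The MEF bins were all in the body. The bin from 58155001 took in part of exon 1 and intron 1 from 1.02 kb after the start, and had 22 CpG per kb. The bin from 58145001 held exon 2, and the bin from 58140001 held exons 3 to 5 of 7. Together they reached 5 of the 7 exons. Of 6124 protein-coding genes with windows of like size, 28.0% had an ES bin, 16.0% had a MEF bin and 0.686% had 3 or more MEF bins. Loxl1 was itself chosen with these lists known, so the last share is only a description.

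The listed bins of the fibrillin genes lay in the interior of both genes and, for Fbn1 alone, also at the far end. None covered a start, but a start takes up little of windows this long. Fbn1 (chromosome 2, 125126330 to 125333729) encodes fibrillin-1, the main microfibril protein of adult tissue, and its human counterpart is the Marfan syndrome gene. Its window of 46 bins held 1 ES bin and 5 MEF bins. The ES bin, at 125125001 to 125130000, covered exons 65 and 66, the last of the transcript with the longest coding sequence. The MEF bins lay 83.7 to 154 kb after the start, in the interior of the gene. A pair from 125180001 and 125185001 held exon 32 and exons 26 to 31. A second pair, from 125205001 and 125210001, held exons 14 to 15 and 12 to 13, and the bin from 125245001 lay in intron 6. Between them, 11 of the 66 exons lay in or partly in a MEF bin. CpG density was moderate in these MEF bins, from 9.2 to 11.6 CpG per kb beside a window median of 9.8, and it was 13.6 CpG per kb in the ES bin. Of 786 protein-coding genes with windows of like size, 51.4% had an ES bin, 50.3% had a MEF bin and 8.27% had 5 or more MEF bins.

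Fbn2 (chromosome 18, 58168277 to 58369580) encodes fibrillin-2, which is made mostly before birth. It is nearly as long as Fbn1, 201 kb beside 207 kb, and its window had 45 bins. It had 1 ES bin and 1 MEF bin. The ES bin at 58200001 to 58205000 held exons 46 to 48 of 65, with 17 CpG per kb. The MEF bin at 58350001 to 58355000 lay in intron 4, 14.6 to 19.6 kb after the start, with 9.4 CpG per kb. Over 826 genes with windows of like size, 51.7% had an ES bin and 50.8% a MEF bin. The 2 fibrillin genes thus had like windows and an equal ES count, and MEF counts of 5 at Fbn1 and 1 at Fbn2, a difference that was not tested. The windows also took in the small gene models Gm9913 at the Fbn1 start and Gm17593 beside the Fbn2 start, and no listed bin touched either.

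The fibulins bind elastin and microfibrils through repeated EGF-like domains. Each of the 5 had at least 1 bin, 4 of them in ES cells and 4 in MEFs, with Efemp2 counted through bins on neighbouring genes. Shares of other protein-coding genes with windows of like size follow. An ES bin occurred in 42.4% (Fbln1), 36.9% (Fbln2), 41.2% (Fbln5 and Efemp1) and 20.8% (Efemp2) of them. For a MEF bin the shares were 30.8%, 25.6%, 29.5% and 11.1% in the same order. Having 2 or more MEF bins applied to 11.7% for Fbln1 and 10.5% for Fbln5 and Efemp1. Fbln1 (chromosome 15, 85036379 to 85116965) encodes fibulin-1, found in basement membranes and elastic fibres. It had 1 ES bin and 2 MEF bins in a window of 21. The ES bin at 85060001 to 85065000 held exons 5 to 8 of 17, with 19.8 CpG per kb. The next bin along, from 85065001, was on the MEF list and held exons 9 to 11, with 13 CpG per kb. The other MEF bin, at 85035001 to 85040000, covered the start and exon 1 and was the richest in CpG of the window, at 23.4 CpG per kb. The 300 bases just before the start, printed above, held 9 of the 117 CpG of this bin, and 9 is also the median of all promoters.

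Fbln2 (chromosome 6, 91162449 to 91222534) encodes fibulin-2, which is deposited in elastic tissue of vessels and developing heart valves. It was the only one of the 10 genes with an ES bin and no MEF bin. The ES bin at 91160001 to 91165000 covered the annotated start and exon 1, and with 14.4 CpG per kb it ranked first of 17 in its window. It was the only ES bin over a start among the 10 genes. The 300 bases before the start annotated in GENCODE M1 held 0 CpG. The RefSeq start lies 309 bases further downstream, so these bases need not be those next to the start in use. The densest exon-free stretch of the bin, in the first intron, held 12 CpG.

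Fbln5 and Efemp2 encode the fibulins known in mice to be needed for elastic fibre assembly, fibulin-5 and fibulin-4. Fbln5 (chromosome 12, 102984775 to 103057265) had 1 ES bin and 2 MEF bins in a window of 20. The ES bin at 103070001 to 103075000 and the MEF bin at 103065001 to 103070000 touched each other upstream of the gene, with centres 15.2 and 10.2 kb before the start and 11 and 12.2 CpG per kb. Their densest exon-free 300 bases, printed above, held 8 CpG each. The other MEF bin, from 103015001, lay in intron 4. The far end of the window reaches the neighbouring gene Trip11, which neither upstream bin touched.

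Efemp2 (chromosome 19, 5473973 to 5481853) is the shortest of the 10 genes and lies among other genes, with Ccdc85b, Fosl1, Fibp and Ctsw in its window. It had 1 ES bin and 1 MEF bin in a window of 7, and neither lay in the gene. The ES bin at 5460001 to 5465000 fell on Fibp, and the MEF bin at 5465001 to 5470000, directly beside it, on the end of Fibp and on Ctsw, so these bins cannot be assigned to Efemp2. The ES bin held 129 CpG and the MEF bin 82 CpG. Without upstream reach the count of ES bins at the 10 genes was 4 and that of MEF bins 14.

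Efemp1 (chromosome 11, 28753204 to 28826743) encodes fibulin-3, known from fascia and the back of the eye. It had 0 ES bins and 2 MEF bins in a window of 20, the poorest window in CpG with a median of 4 CpG per kb. The MEF bin at 28735001 to 28740000 lay 13.2 to 18.2 kb upstream and the bin at 28790001 to 28795000 in intron 4. They had 3.2 and 5.6 CpG per kb, the lowest of the 20 MEF bins. In the genome as a whole 0.131% of bins in the lowest of the 10 groups by CpG density, to which the upstream bin belongs, were on the MEF list. In the group of the intron bin the share was 0.585%.

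By place in the gene, the 7 ES bins were 1 over a start, 3 over other exons, 0 in introns alone and 3 upstream. The 20 MEF bins were 2 over a start, 8 over other exons, 4 in introns alone and 6 upstream. Of the bins that overlap gene bodies, 2.40% were on the ES list and 8.38% on the MEF list, beside 3.38% and 9.66% of all window bins. The shares of exon and intron bins among all window bins are not given, so these counts show no preference for a place. By their medians, listed bins were richer in CpG than unlisted bins of the same windows, the ES bins more so than the MEF bins. The ES bins had a median of 14.4 CpG per kb (10.8 to 25.8) and the MEF bins 11.1 CpG per kb (3.2 to 23.4), against 9.6 CpG per kb in the 180 window bins on neither list. Without Eln the MEF median was 10.4 CpG per kb. All 7 ES bins and 12 of the 20 MEF bins were in the upper 3 of the 10 genome-wide groups by CpG density. The windows were themselves richer in CpG than the genome (median 9.8 against 7 CpG per kb). Bins at that window median already fell in those groups, so such bins were common in the windows. Their exact share is not given, so neither the 7 ES bins nor the 12 of 20 MEF bins are set against it. The medians of the ES and MEF bins lay near those of the whole lists, 12.6 CpG per kb for ES and 11 CpG per kb for MEFs. The same ordering thus held over all listed bins.

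**Figure D4:**
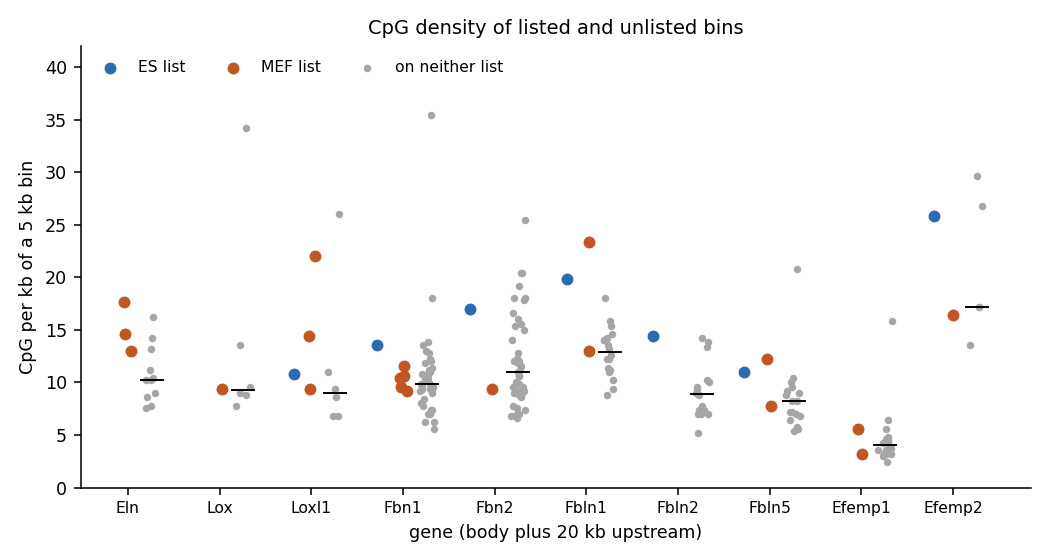
CpG per kb (vertical axis) of each 5 kb bin in the windows of the 10 genes. ES bins are blue, MEF bins orange and bins on neither list grey, with the black line at the median of the grey points. The ES bins span 10.8 to 25.8 CpG per kb, and the MEF bins reach down to 3.2 at Efemp1.

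At the edge of the 20 kb limit, the farthest upstream bins inside had centres 15.2 kb (Fbln5, ES list) and 15.7 kb (Efemp1, MEF list) before the start. Just outside, apart from the Eln run that begins with a centre 24.4 kb upstream, the ES list had bins with centres 31.5 and 51.5 kb before Loxl1, and the MEF list had 1 bin with its centre 43.9 kb before Fbln1.

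Among other genes of elastic fibres and microfibrils, 16 of 45 had an ES bin, 12 had a MEF bin, 5 had both and 22 had neither. These shares, 35.6% and 26.7%, are read against the 25.9% and 18.1% of all genes, without adjustment for gene length. Ltbp1 and Ltbp2 encode binding proteins of latent TGF-beta that attach to microfibrils. Ltbp1 had 3 ES bins and 5 MEF bins, and Ltbp2 had 1 ES bin and 3 MEF bins. In each of them 1 bin was on both lists, from 75410001 on chromosome 17 in Ltbp1 and from 86130001 on chromosome 12 in Ltbp2. Ltbp4, which in mice is needed for elastic fibres in the lung, had 3 touching ES bins from 28100001 to 28115000 on chromosome 7 and 0 MEF bins. Thsd4, whose product binds fibrillin-1 and promotes microfibril assembly, had 2 ES bins and 10 MEF bins, the most of the list, in a gene of 555 kb. Rin2, linked in people to a disorder of lax skin, had 1 ES bin and 3 MEF bins. The lysyl oxidase genes Loxl2 and Loxl4 had 1 and 2 ES bins and 0 and 1 MEF bins, and Loxl3 had none.

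Besides Ltbp4, genes of this list with ES bins alone were Itgav, an integrin subunit for fibrillin and other ligands, with 3 bins, and Emilin1, Ctsa and Hmcn2 with 2 each. Mfap3, Loxl2, Adamts10, Adamts17, Itgb3 and Atp6v0a2 had 1 ES bin each. Genes with MEF bins alone were Hmcn1 with 2 bins and Mfap2, Emilin2, Adamtsl2, Mmp12, Mmp2 and Aldh18a1 with 1 each. Mfap2 encodes a microfibril-associated glycoprotein, and Mmp12 and Mmp2 are proteases that can cut elastin. The 22 genes of the list with no bin included Fn1, Vcan, Dcn, Bgn and Mfap5, which encode matrix proteins, as do genes of the list with bins. Atp7a, the copper transporter that supplies lysyl oxidases, had no bin either.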

How the data were processed

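Genomic DNA of 4 libraries, 1 each of LSH knock out and wild type ES cells and MEFs, was enriched for 5hmC and sequenced, per the labels' protocols. BWA, SAMtools 1.3.1 and genome mm9 are named in the submitters' processing notes, without a role. The counting of reads, the caller of altered bins and its threshold are not stated in those sources. The authors deposited only the start and end of each altered 5 kb bin, with no count, fold or p-value. Depth is unknown, so no floor can be given.

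The reference was NCBIM37 (mm9) with GENCODE M1. All 17517 bins on chromosomes 1 to 19 and X fell inside its chromosomes, and 1 shorter MEF bin ended at 120284312, the length of chromosome 13. Neither list held a repeated bin. Genes were 26031 models of the types protein coding, lincRNA and processed transcript, with the longest taken where a name recurred. A bin belonged to a gene if it overlapped the body or the 20 kb upstream, and to a start if it came within 1 kb of it. Exons are numbered in the transcript with the longest coding sequence. CpG density used 511186 bins with at most 50% undetermined bases. Counting was checked on made-up intervals with known answers.

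The members, gene lists and windows were chosen with earlier results of these data known. The text names all 10 genes, genes of the pathway list with a bin, genes overlapping their windows or near the Eln run, and the 5 genes nearest to Eln in counts. The pathway genes named as having 0 bins, and the genes named from the Williams syndrome region, were chosen after their counts were seen. Alternatives were other upstream reaches, downstream reach, bin midpoints, the longest coding transcript, other joining distances and leaving out Eln. Python 3.11.15, numpy 2.4.6, pandas 2.3.3, scipy 1.17.1 and matplotlib 3.10.9 were used.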

Additional observations from a re-analysis of the deposited data

How the results depend on the processing

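Of 60 alternative values for 12 results, 54 stayed within 1.5 times the reported count or median, or within the interval of the reported share. Some could not move, since Eln has 0 ES bins and leaving it out changes no ES count or ES median. The alternative windows also overlap the main ones, so this tally is no independent check. With gene bodies only, and likewise with 5 kb upstream, ES bins numbered 4 and ES members with a bin 4, against 7 and 7, since the upstream bins of Loxl1, Fbln5 and Efemp2 were then left out. Counting only bins with midpoints in the Eln window left 0 ES bins and 3 MEF bins of the Eln run, against 1 and 9, since the run extends past the window. With only touching bins joined, the longest run had 6 MEF bins. Without Eln, 7 ES bins at 7 genes and 17 MEF bins at 8 genes were counted. No paired analysis was possible because each group has 1 library and the lists carry no values per library. No library could be left out, and no replicate spread, direction of change or read depth limits could be given, so ES and MEF counts may differ through the cells, the single libraries or the making of each list, and these cannot be told apart.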
